A study of Mus musculus with 8 samples.

Results

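Hemoglobin genes and their chaperone were followed in whole blood of mice by 11 probe sets, which cover 6 genes or gene pairs, out of 45101 probe sets on the array. They were the adult beta globins Hbb-b1 and Hbb-b2 (1 probe set for both), the adult alpha globins Hba-a1 and Hba-a2 (3 probe sets), the embryonic beta-like globins Hbb-bh1 (3) and Hbb-y (2), the embryonic alpha-like globin Hba-x (1), and the alpha-hemoglobin stabilizing protein Ahsp (1). The members were chosen by probe set identifier, and the gene of each is the one given with that list. There were 4 hypoxic mice, exposed on a Mount Everest expedition to oxygen that was lowered from 21% to about 7% over 15 days, and 4 control mice kept under room conditions in Kathmandu over the same time. Blood came from the vena cava at the end, with 1 array per mouse. Food and water were renewed each day, per the labels, and the sources used here do not state the strain, sex or age of the mice or the oxygen level of the control room. Place and oxygen changed together, so that their parts cannot be told apart. The labels number the mice without naming litters or cages, so the p-values measure the spread between these mice only.

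Hemoglobin is a tetramer of alpha-like and beta-like chains. The genes of each kind lie in a cluster of their own, in which embryonic members are used by the primitive red cells of the yolk sac and adult members by the red cells that follow. In adult blood nearly all globin RNA is that of the adult genes, and it sits in reticulocytes, the young red cells that have lost their nucleus and not yet their RNA. Ahsp binds free alpha chains and keeps them soluble until a beta chain takes them up.

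In the hypoxic mice the embryonic beta-like globins rose at all 5 of their probe sets, by 4.90-fold to 5.12-fold for Hbb-y and 2.77-fold to 7.39-fold for Hbb-bh1. Ahsp rose 1.68-fold. The embryonic alpha-like globin Hba-x was also called higher, but it lay near the bottom of the scale: its control mean of 3.83 lay below that of a bacterial control probe set (3.98), which shifted by 0.68 on the log2 scale where Hba-x shifted by 0.78. None of the 4 adult globin probe sets passed the threshold, with changes of 1.02-fold to 1.07-fold. All 11 passed the filter on low levels, and 7 of them, Hba-x included, were called higher and 0 lower (limma, Benjamini-Hochberg adjusted p under 0.05), where 12.4% of the 29231 probe sets tested were called higher and 31.2% were called in either direction. The median change over the 11 was 0.78 on the log2 scale, against -0.06 over all probe sets tested. That median is the value of Hba-x itself, and genes with several probe sets count several times in it. In the same 7 probe sets the lowest hypoxic value exceeded the highest control value, which held for 13.9% of the probe sets tested. Whole blood is a mixture, and more red cell precursors or reticulocytes cannot be told apart here from more of these RNAs per cell.

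**Figure D1:**
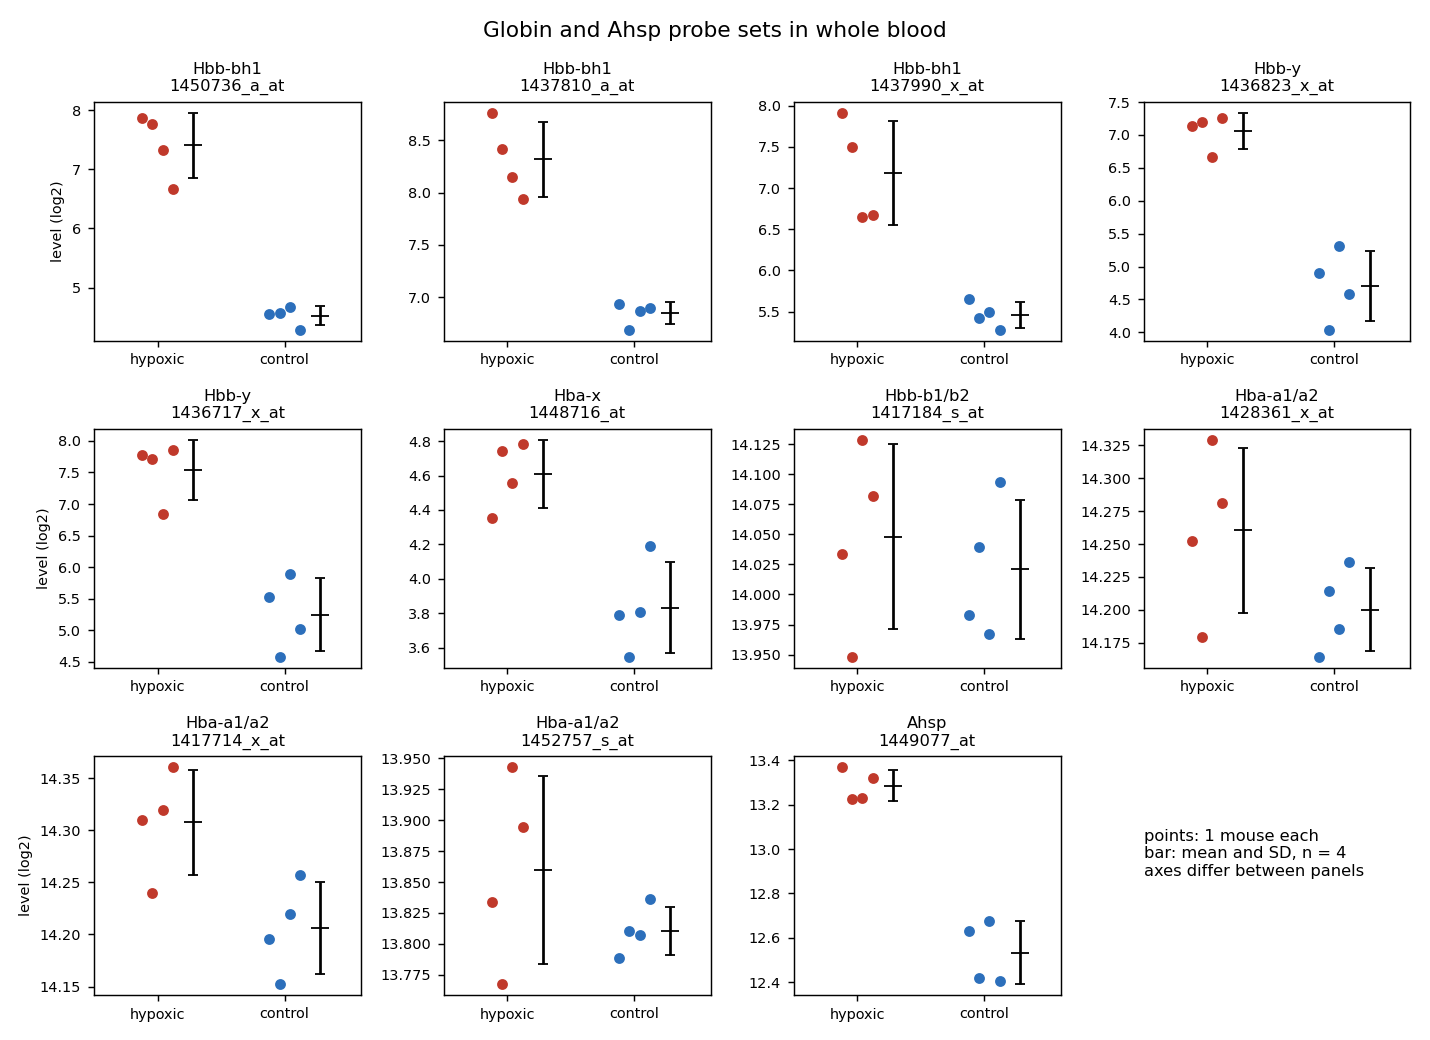
Level of each probe set on the log2 scale (y axes differ between panels), with hypoxic mice in red left of control mice in blue, 1 point per mouse, and the mean and SD over 4 mice as a bar. The groups are apart for the 6 embryonic globin probe sets and Ahsp and overlap for the 4 adult globin probe sets.

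All values are GCRMA log2 levels, so that a difference of 1 is a 2-fold change. Array medians lay between 4.56 and 4.63, and within a group the arrays correlated at 0.945 to 0.974 across tested probe sets. The array carries 27 probe sets for genes of Bacillus subtilis, which have no partner in mouse RNA and can show where the bottom of the scale lies; whether such RNA was added to the samples is not stated. The brightest of them, AFFX-PheX-3_at, averaged 4.65 in hypoxic mice and 3.98 in control mice, and the next averaged at most 3.51 in either group. The top of the scale, the largest value on an array, lay between 14.22 and 14.36. The adult globin probe sets, whose RNA is that of red cells, gave some of the strongest signals on every array, as the label whole blood implies.

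Embryonic beta-like globins had the largest changes among the 11 probe sets. Hbb-bh1, the gene for the embryonic chain called beta-H1, is read by 3 probe sets. At 1450736_a_at the levels were 7.87, 7.76, 7.33 and 6.66 in hypoxic replicates 1 to 4, against 4.56, 4.58, 4.66 and 4.29 in control replicates 1 to 4. The lowest hypoxic mouse was 2.00 above the highest control mouse. The mean was 7.41 ± 0.55 in hypoxic mice and 4.52 ± 0.16 in control mice (SD, n = 4 each), a change of 2.89 ± 0.24 (SE, 95% interval 2.37 to 3.40, adjusted p = 1.93e-05 in limma). Only 39 of the 29231 tested probe sets had a larger rise.

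The other probe sets of Hbb-bh1 rose as well, with smaller estimates. At 1437810_a_at the hypoxic mice were at 8.77, 8.42, 8.16 and 7.94, against 6.93, 6.69, 6.87 and 6.90 in control mice. The change was 1.47 ± 0.18 (SE, 95% interval 1.08 to 1.86, adjusted p = 0.000183 in limma). At 1437990_x_at the hypoxic mice were at 7.92, 7.49, 6.65 and 6.67, against 5.66, 5.42, 5.49 and 5.28 in control mice, and the change was 1.72 ± 0.26 (SE, 95% interval 1.15 to 2.29, adjusted p = 0.000703 in limma). In each of the 3 probe sets hypoxic replicate 1 was the highest of its group and hypoxic replicate 2 the next, while the order among the control mice differed from probe set to probe set. The hypoxic mice also spread more widely than the controls, with an SD of 0.36 to 0.63 in hypoxic mice, against 0.11 to 0.16 in control mice. No test was made of whether the size of the rise differed between the 3 probe sets. The interval of the first lies above those of the other two.

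Hbb-y, which encodes the embryonic epsilon-y chain, was measured by probe sets 1436823_x_at and 1436717_x_at. At 1436823_x_at the hypoxic mice had levels of 7.13, 7.20, 6.66 and 7.26, against 4.90, 4.04, 5.31 and 4.58 in the control mice. This was a change of 2.36 ± 0.25 (SE, 95% interval 1.82 to 2.89, adjusted p = 7.94e-05 in limma), which 129 tested probe sets exceeded. At 1436717_x_at they were 7.77, 7.71, 6.84 and 7.86 in hypoxic mice, against 5.52, 4.58, 5.89 and 5.01 in control mice, a change of 2.29 ± 0.29 (SE, 95% interval 1.66 to 2.93, adjusted p = 0.000252 in limma). Both probe sets put the mice in nearly one order. Hypoxic replicate 4 was highest and hypoxic replicate 3 lowest in each, and among controls replicate 3 was highest and replicate 2 lowest in each.

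The embryonic beta-like genes thus ranked the hypoxic mice differently. Hypoxic replicate 4 had the highest Hbb-y level at both probe sets and the lowest Hbb-bh1 level at 2 of the 3 probe sets (6.66 and 7.94), being the second lowest at the other (6.67, beside 6.65 in hypoxic replicate 3). Hypoxic replicate 1, the highest of its group at every Hbb-bh1 probe set, was in between at Hbb-y. Control replicate 2 was lowest for Hbb-y, at 4.04 and 4.58, and also for Hbb-bh1 at 1437810_a_at (6.69), but stood among the other controls for Hbb-bh1 at 1450736_a_at (4.58) and 1437990_x_at (5.42). With 4 mice per group these orders are a description and were not tested.

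**Figure D2:**
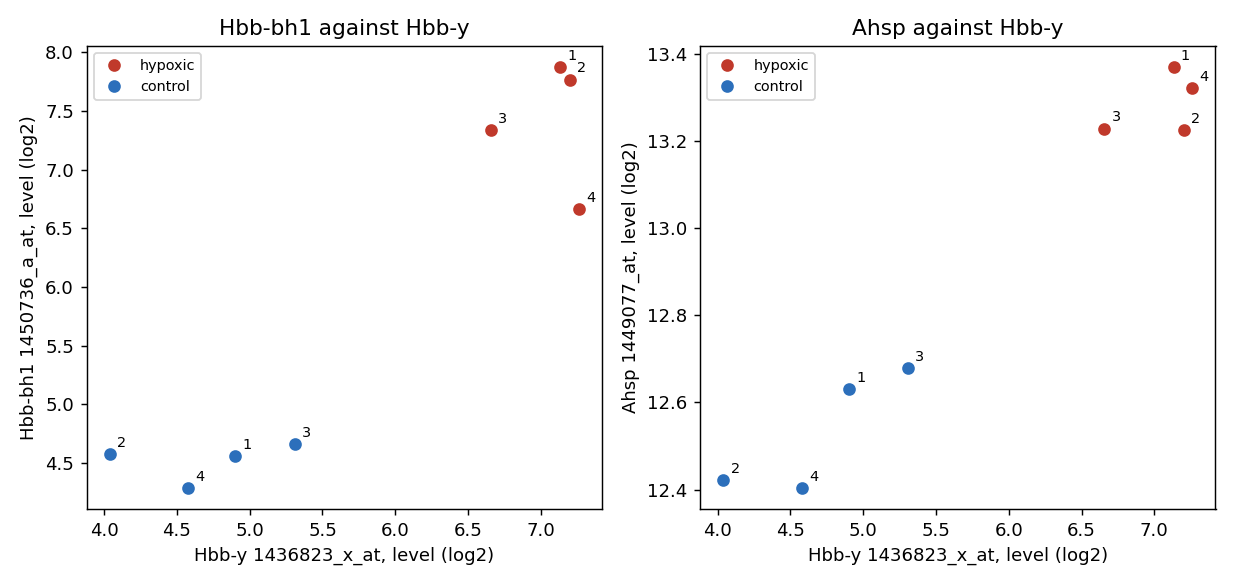
Level (log2) of Hbb-bh1 at 1450736_a_at (left) and of Ahsp (right) against Hbb-y at 1436823_x_at, hypoxic mice in red and control mice in blue, numbered by replicate. Hypoxic replicate 4 has the highest Hbb-y (7.26) and the lowest Hbb-bh1 (6.66) of the hypoxic mice, and in both panels the 4 hypoxic mice lie above and to the right of the 4 control mice.

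The embryonic alpha-like gene Hba-x, which encodes the zeta chain, was close to the bottom of the scale. Its probe set 1448716_at was at 4.35, 4.74, 4.56 and 4.79 in hypoxic mice, against 3.79, 3.55, 3.81 and 4.19 in control mice. The lowest hypoxic mouse was only 0.16 above the highest control mouse. The change was 0.78 ± 0.17 (SE, 95% interval 0.41 to 1.14, adjusted p = 0.00512 in limma), and 0.56 with values under 4 set to 4. Hba-x passed the filter, a log2 level above 4 on at least 4 arrays, through the 4 hypoxic mice and 1 control mouse. The bacterial probe set AFFX-PheX-3_at, for which mouse RNA holds no target, had nearly the same levels. It was at 4.65, 4.54, 4.77 and 4.65 in hypoxic mice, against 3.99, 3.66, 4.14 and 4.12 in control mice, a change of 0.68 (adjusted p = 0.00502 in limma with the control probe sets kept in the fit). The rise of Hba-x was thus of the size of the shift at a probe set for no mouse gene, and whether both have 1 source was not tested. The rises of Hbb-bh1 and Hbb-y, from 1.47 to 2.89, all lie beyond 0.68, the upper end among those 27 probe sets, and their lower 95% bounds (1.08 to 2.37) do too. The control levels of Hbb-bh1 at 1450736_a_at (4.29 to 4.66) and of Hbb-y at 1436823_x_at (4.04 to 5.31) overlap or come close to the control levels of AFFX-PheX-3_at (3.66 to 4.14), so that the folds at these probe sets start from near the bottom of the scale.

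**Figure D3:**
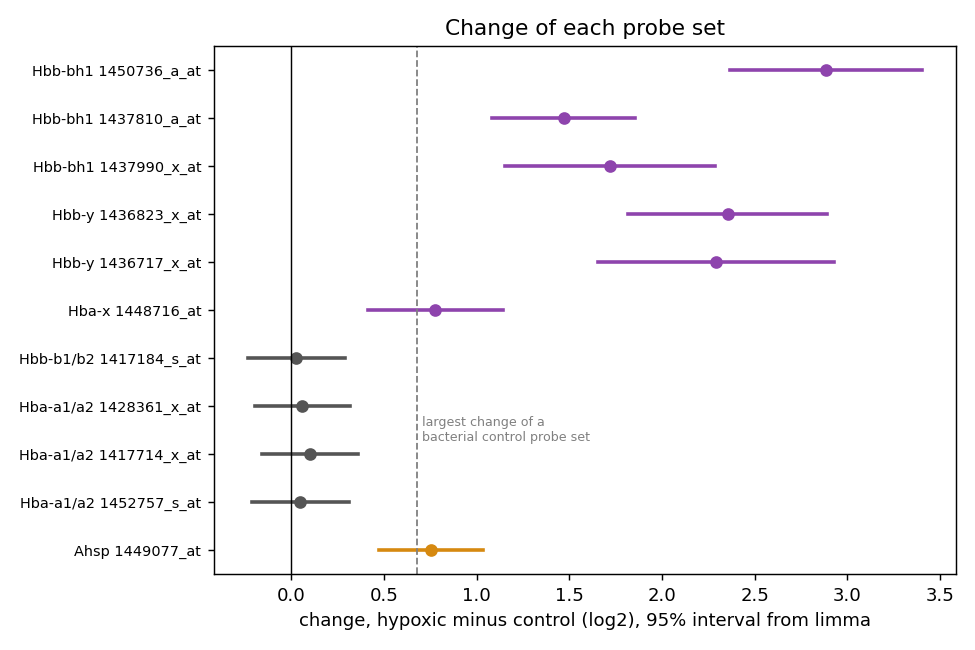
Change of each probe set, hypoxic minus control on the log2 scale, as a point with its 95% interval from limma, for embryonic globins (purple), adult globins (grey) and Ahsp (orange). The dashed line marks 0.68, the change of AFFX-PheX-3_at; the intervals of Hbb-bh1 and Hbb-y lie to its right, and those of Hba-x and Ahsp reach across it.

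Adult globins stood at the top of the scale in both groups. The adult beta globin probe set, of the kind s_at that is shared by several genes and is read here as Hbb-b1 and Hbb-b2 together, was at 14.03, 13.95, 14.13 and 14.08 in hypoxic mice, against 13.98, 14.04, 13.97 and 14.09 in control mice. The control range lay inside the hypoxic range. The mean was 14.05 ± 0.08 in hypoxic mice and 14.02 ± 0.06 in control mice (SD, n = 4 each), and the difference of 0.03 had a 95% interval from -0.24 to 0.29 (adjusted p = 0.881 in limma). On the linear scale that interval runs from 0.849-fold to 1.22-fold.

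The adult alpha globins were not called at any of their 3 probe sets either, but at 1417714_x_at the groups overlapped only slightly. At 1417714_x_at the hypoxic mice were at 14.31, 14.24, 14.32 and 14.36, against 14.20, 14.15, 14.22 and 14.26 in control mice. In 15 of the 16 pairs of a hypoxic and a control mouse the hypoxic one was higher, and the change was 0.10 ± 0.12 (SE, 95% interval -0.16 to 0.36, adjusted p = 0.534 in limma). At 1428361_x_at the hypoxic mice lay between 14.18 and 14.33 and the control mice between 14.16 and 14.24, a change of 0.06 with an interval from -0.20 to 0.32 (adjusted p = 0.722 in limma). At 1452757_s_at the hypoxic mice lay between 13.77 and 13.94 and the control mice between 13.79 and 13.84, a change of 0.05 with an interval from -0.21 to 0.31 (adjusted p = 0.776 in limma). The adult beta globin probe set, 1428361_x_at and 1452757_s_at put the hypoxic mice in 1 order, with replicate 3 highest, then 4, 1 and 2.

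These intervals leave room for a change of up to 1.28-fold in the signal. Limma draws the variance of each probe set towards that of all tested probe sets. At 1417714_x_at the SE of 0.12 thus exceeds the SD of 0.05 among hypoxic mice and 0.04 among control mice. Of the 38 tested probe sets with a mean level of at least 13, among them the adult globins, 3 were called, and their changes ran from -0.71 to 0.51. The adult globin levels lie at the top of the range of every array, and whether signal that bright still follows the amount of RNA was not tested. The share of embryonic RNA in all globin RNA is not given, since levels of different probe sets are not on 1 scale.

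Ahsp, the alpha globin chaperone, also lay near the top of the scale and did change. Its single probe set was at 13.37, 13.22, 13.23 and 13.32 in hypoxic mice, against 12.63, 12.42, 12.68 and 12.40 in control mice. The gap between the lowest hypoxic and the highest control mouse was 0.55, several times the SD of 0.07 among hypoxic mice and 0.14 among control mice. The change was 0.75 ± 0.13 (SE, 95% interval 0.47 to 1.03, adjusted p = 0.0015 in limma), which is 1.68-fold with an interval from 1.39-fold to 2.05-fold. Of the 194 tested probe sets with a mean level of at least 12, Ahsp among them, 29 were called higher and 8 rose by more than Ahsp. The mean level of Ahsp over all arrays was below 13. Of the 38 at 13 or above, 1 was called higher and none rose by as much as Ahsp. Across the array, 1865 of the tested probe sets rose by more. Control replicates 1 and 3 had the 2 highest control levels of both Ahsp and Hbb-y, and replicates 2 and 4 the 2 lowest. The hypoxic replicates, from highest to lowest, were 1, 4, 3, 2 for Ahsp. For Hbb-y they were 4, 2, 1, 3 at 1436823_x_at and 4, 1, 2, 3 at 1436717_x_at.

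**Figure D4:**
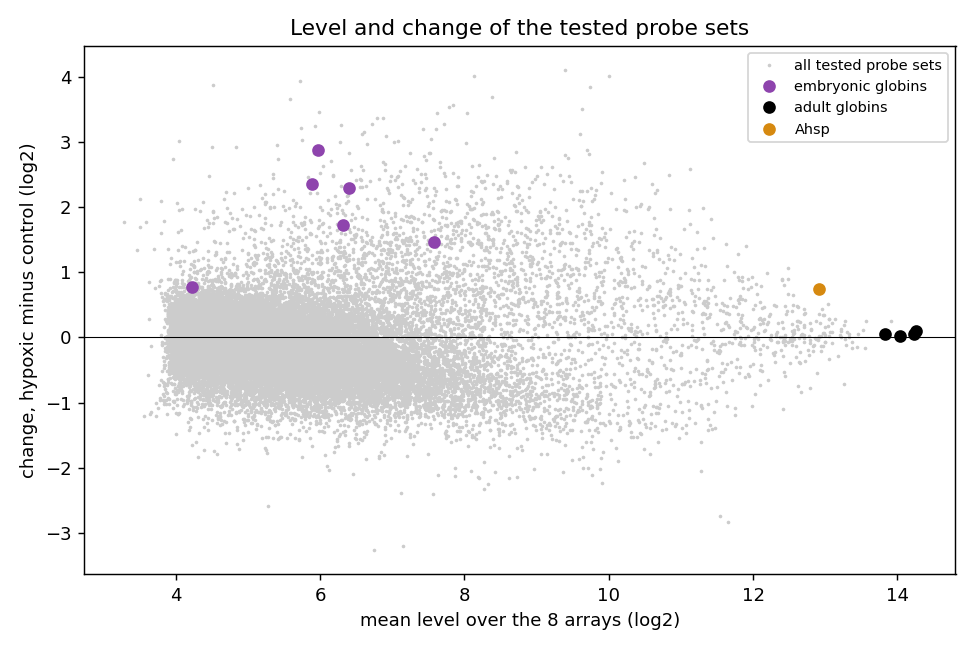
Change (hypoxic minus control, log2) against mean level over the 8 arrays (log2) for all 29231 tested probe sets in grey, with embryonic globins (purple), adult globins (black) and Ahsp (orange). The adult globins lie at the right edge near 0, and the embryonic globins between 0.78 and 2.89 at low to middle levels. Ahsp, whose own mean is below 13, lies at 0.75, above all tested probe sets with a mean of 13 or more.

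To ask whether Ahsp rose relative to globin within the same blood sample, the level of the adult beta globin probe set was subtracted from that of Ahsp on each array. The difference was -0.76 ± 0.10 in hypoxic mice and -1.49 ± 0.20 in control mice (SD, n = 4 each), a change of 0.73. The beta globin signal lay at the top of the scale and hardly differed between groups, so this value largely repeats the Ahsp change of 0.75 and is no separate measure of Ahsp per globin RNA. The exact permutation test over all 70 assignments gave p = 0.0286, two-sided, the smallest this design allows, and 0.114 after adjustment over the 4 differences tested, so that it does not pass once adjusted. In limma, with the differences added to all tested probe sets, the adjusted p was 0.00297. Each adult alpha globin probe set was set against adult beta globin in the same way. Alpha minus beta differed between groups by 0.03 at 1428361_x_at (95% interval -0.22 to 0.29 in limma), by 0.07 at 1417714_x_at (-0.18 to 0.33) and by 0.02 at 1452757_s_at (-0.23 to 0.28). Exact permutation tests gave p = 0.114, 0.0857 and 0.343 in that order of probe sets, with 0.152, 0.152 and 0.343 after adjustment. None of the 3 passed. Both terms lie at the top of the scale, so these intervals describe the signal and set no limit on an unequal change of alpha and beta globin RNA.

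No promoter sequence of Hbb-bh1 was available here. Promoter sequences from RefSeq (GRCm38.p6) are shown for Hbb-y and Hba-x, embryonic genes called higher, and for adult genes that were not. For each gene they are the 250 bases before the annotated start, read 5′ to 3′ on the strand of the gene, with Hbb-y at chr7:103853208-103853457 (minus strand), Hba-x at chr11:32276350-32276599 (plus), Hbb-bs, an adult beta globin of the reference strain, at chr7:103827929-103828178 (minus) and Hba-a1 at chr11:32283422-32283671 (plus). Capitals mark matches on either strand to CACCC, the box bound by the red cell factor Klf1, to GATAA, the core bound by Gata1, to CCAAT and to TATAA, none of which overlap here.
Hbb-y: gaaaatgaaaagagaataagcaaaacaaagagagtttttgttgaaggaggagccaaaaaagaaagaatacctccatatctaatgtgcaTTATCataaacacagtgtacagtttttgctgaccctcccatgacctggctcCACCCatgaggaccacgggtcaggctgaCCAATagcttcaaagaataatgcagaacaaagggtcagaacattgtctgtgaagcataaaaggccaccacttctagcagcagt
Hba-x: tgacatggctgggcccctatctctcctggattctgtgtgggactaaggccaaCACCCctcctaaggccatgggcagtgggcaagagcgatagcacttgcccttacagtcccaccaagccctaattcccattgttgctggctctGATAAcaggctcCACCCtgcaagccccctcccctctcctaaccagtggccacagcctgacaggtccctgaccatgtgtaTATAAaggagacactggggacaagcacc
Hbb-bs: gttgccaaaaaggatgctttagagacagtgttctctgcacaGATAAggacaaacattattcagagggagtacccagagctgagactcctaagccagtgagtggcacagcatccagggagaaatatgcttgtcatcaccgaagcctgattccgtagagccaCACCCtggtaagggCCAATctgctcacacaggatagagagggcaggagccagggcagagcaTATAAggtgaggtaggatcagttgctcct
Hba-a1: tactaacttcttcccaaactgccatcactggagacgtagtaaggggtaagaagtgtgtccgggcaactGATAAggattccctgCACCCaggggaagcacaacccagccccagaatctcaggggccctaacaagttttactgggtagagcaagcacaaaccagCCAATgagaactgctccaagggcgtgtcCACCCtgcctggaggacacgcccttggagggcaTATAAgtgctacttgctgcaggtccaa

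The 4 embryonic and adult promoters shown, which leave out Hbb-bh1, all held CACCC and GATAA matches, but differed in the other motifs. Hbb-y held 1 CACCC, 1 CCAAT and 1 GATAA match, the last on the opposite strand, and no TATAA. Hba-x held 2 CACCC, 1 GATAA and 1 TATAA match and no CCAAT. Hbb-bs held 1 match of each of the 4 motifs, and Hba-a1 held 2 CACCC and 1 of each of the others. Such short motifs are frequent, with CACCC in 52.0%, CCAAT in 33.8%, GATAA in 22.6% and TATAA in 22.8% of the 32851 promoter windows of the same length. Aligned over their length, the embryonic pair Hbb-y and Hba-x was identical at 44.6% of columns and the adult pair Hbb-bs and Hba-a1 at 46.0%. Within a cluster, Hbb-y and Hbb-bs were identical at 50.7% and Hba-x and Hba-a1 at 50.2%, while the near-identical copies Hba-a1 and Hba-a2 were at 97.6%. Hba-x and Hbb-bt, an adult beta globin of the other cluster, were at 50.4%. The identity of unrelated promoters was not measured, so values of 44.6% to 50.7% are not read as likeness. A match describes these letters only, and no binding was measured.

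**Figure D5:**
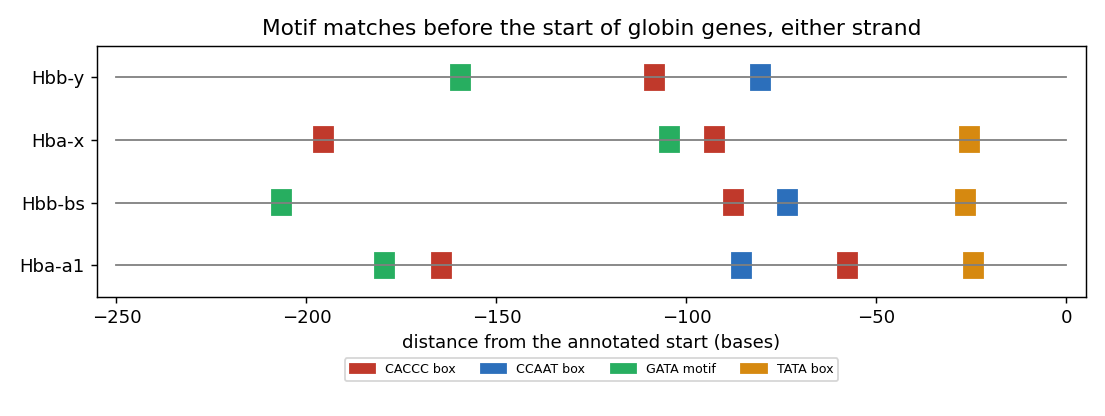
Positions of motif matches on either strand in the 250 bases before the start of Hbb-y and Hba-x (embryonic) and of Hbb-bs and Hba-a1 (adult), as distance from the annotated start in bases. All 4 hold a CACCC and a GATAA match, and a TATAA match lies close to the start in Hba-x, Hbb-bs and Hba-a1 and is missing from Hbb-y.

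In both clusters the embryonic genes come first. On GRCm38.p6 Hbb-y is followed, in the direction of transcription, by Hbb-bh1, Hbb-bh2, Hbb-bh3, Hbb-bs and Hbb-bt, and Hba-x by Hba-a1, Hbq1b, Hba-a2 and Hbq1a. Hbb-y and Hbb-bh1, which rose, both come before the adult genes in that order. Hbb-bh2, Hbb-bh3, Hbq1a, Hbq1b and Hbb-bh0, which the order given here leaves out, were not analysed. The names Hbb-b1 and Hbb-b2 belong to another form of the cluster than the one in that reference, and the strain that decides which of them these mice carry is not given.

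Several of these probe sets can bind more than 1 transcript. The suffix s_at marks probes shared by several genes and x_at probes that may bind others, so that signal of 1 globin in the probe set of another was not tested. The 2 Hbb-bh1 probe sets without the x_at suffix rose as well, while both Hbb-y probe sets carry it. Hba-a1 and Hba-a2 are near-identical copies and are not told apart by any of the 3 alpha probe sets.

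Of the red cell markers and of the genes that regulate globin or supply heme, only the transferrin receptor (Tfrc) could be identified, by the names of its 3 control probe sets. Tfrc brings in the iron for heme and marks red cell precursors. Its 3′ probe set was at 8.54, 9.03, 7.99 and 8.33 in hypoxic mice, against 5.07, 5.42, 5.90 and 5.05 in control mice, a change of 3.11 ± 0.24 (SE, adjusted p = 1.42e-05 in limma with the control probe sets kept). The other two Tfrc probe sets changed less, by 1.37 ± 0.22 at the 5′ one (adjusted p = 0.000971) and by 0.92 ± 0.26 at the middle one (adjusted p = 0.0208, SE and limma as before). At all 3 the hypoxic mice lay above the control mice, as for the embryonic beta-like globins and Ahsp. The highest hypoxic level of Tfrc, in replicate 2 at each, fell on neither the highest Hbb-y nor the highest Hbb-bh1 level. The part of a changed number of red cell precursors in the globin and Ahsp rises was not tested, and markers of white cells and platelets were not analysed here for want of gene names.

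The pattern of Ahsp was shared by many probe sets. Over the 8 arrays 798 of 29220 tested probe sets outside the list had a Pearson correlation above 0.95 with Ahsp, the 5 highest from 0.994 to 0.997. All 5 were higher in hypoxic mice, by 1.36 to 2.75. For adult beta globin 2 probe sets were above 0.95, the 5 highest from 0.946 to 0.962, and all 5 had mean levels of 4.31 to 4.99 and no called change. These correlations describe 8 arrays in 2 groups, share the arrays' scaling and are no test. The probe sets were picked by likeness over both groups together. A rise beside Ahsp and no called change beside adult beta globin therefore follow from the picking. The genes of these probe sets are not named here.

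In the authors' deposited table the same 7 probe sets had a q-value under 5% and the 4 adult globin probe sets did not. The deposited folds were 7.73, 2.83 and 3.53 for the Hbb-bh1 probe sets in the order given above, 4.93 and 4.79 for Hbb-y, 1.70 for Hba-x and 1.68 for Ahsp, and 1.02 to 1.07 for the adult globins in the authors' deposited table. Those folds rest on the same arrays and were made from linear means, so they are no second measurement.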

How the data were processed

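Expression was measured with 1 Affymetrix array per mouse, on RNA of 100 µl of blood. The tools named in the submitters' processing notes are GCRMA, a background correction and summary of probe sets, and Partek, without versions; the sources used here name no step that removes globin RNA. The deposited value table holds log2 values whose decimal point was lost, and some became spreadsheet day numbers. Every possible reading of a cell was formed, and the reading kept was the one whose group difference matched the authors' own log2 difference within 5e-06. For 38201 of 38206 probe sets there was 1 such reading, and all 11 members were read in this way; 6895 other probe sets were read from their own row alone. The recovered values then gave the deposited fold ratio to within 1.65e-06. The second deposited table is the authors' SAM analysis, with a score, a linear fold and a q-value in percent, per the file headers.

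The 64 control probe sets were left out. Probe sets with log2 above 4 on at least 4 of 8 arrays were tested (29231) with limma 3.58.1 in R 4.3.3, in a model with 1 term for group, Benjamini-Hochberg adjusted p under 0.05. The script was tested on simulated data. Members and lists were chosen with earlier results of these data known. Named were all members, and for Ahsp and adult beta globin the probe sets most alike by correlation. Pathway and cell type lists could not be tested without gene names, apart from Tfrc. Same-numbered mice are different animals, and their deviations had correlations of -0.11, -0.06, -0.10 and 0.06. No 2 arrays had more than 0.313% identical values. Alternatives for filter, variance, scaling, weights, floor, block, threshold, control probe sets, test and each mouse left out were run. The number of arrays limits precision. Python 3.11.15, numpy 2.4.6, pandas 2.3.3, Biopython 1.88 and matplotlib 3.10.9 were used.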

Additional observations from a re-analysis of the deposited data

Results flagged for a closer look

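The 11 probe sets and 4 within-array differences gave 30 groups of 4 mice. In 2 of these, 1 mouse stood apart from its group mates by Dixon's test, and chance alone would mark about 1.5. For Hbb-y at 1436717_x_at this was hypoxic replicate 3, whose level of 6.84 compares with 7.71 to 7.86 among its 3 group mates. Leaving that mouse out moved the Hbb-y change to 2.53 (limma adjusted p = 0.000111), while all 8 mice gave 2.29. For adult alpha globin 1417714_x_at minus adult beta globin it was again hypoxic replicate 3, with a difference of 0.19 where the highest of its group was 0.29. Leaving it out moved the change between groups to 0.10 (exact permutation p = 0.0571), while all mice gave 0.07 (exact permutation p = 0.0857).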

How the results depend on the processing

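All 7 called members kept their direction and their call in every fit that tested them, with adjusted p of at most 0.0173 in moderated limma fits and 0.0259 (Hba-x) in a linear model without moderation. No adult globin probe set was called in any, with adjusted p of at least 0.274 in moderated limma fits and 0.0759 without moderation. The stricter filter, which keeps 6 of the members, left 2 called (Hbb-bh1 at 1437810_a_at and Ahsp) because it does not test the others, and 3706 calls over all probe sets. The count over all probe sets, 9114, was 4617 at an adjusted p under 0.01, 13934 in the authors' deposited table at a q-value under 5% (the cause was not tested), and 6872 to 9315 with each mouse left out in turn. The count of called members was 7 whichever mouse was left out. Adding a replicate block to the fit gave 7764 calls, 7 of them members, and changed no member's call. In the same-numbered pairs Ahsp minus adult beta globin changed by 0.73, with an exact p of 0.125, the smallest that 4 pairs allow. With each mouse left out in turn, alpha globin 1428361_x_at minus beta globin changed by 0.0208 to 0.0462, and its exact permutation p passed the threshold only without control replicate 3 (0.0462, p = 0.0286, before adjustment). Left-out values were 2.73 to 3.13 for Hbb-bh1 at 1450736_a_at, 2.13 to 2.56 for Hbb-y at 1436823_x_at and 0.71 to 0.80 for Ahsp. Hba-x lay between 0.56 and 0.90 over all alternatives. Signal near the bottom of the GCRMA scale limits what can be said of Hba-x, and signal near its top what can be said of adult globins.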
